A study of Mus musculus with 6 samples.

Results

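The guanylate-binding proteins are a family of large GTPases, and 10 of their genes were followed in the transcriptome of cultured mouse islets: Gbp2, Gbp3, Gbp4, Gbp5, Gbp6, Gbp7, Gbp8, Gbp9, Gbp10 and Gbp11. They were 10 of the 48397 gene names in the count tables, and all 10 passed the filter on low counts. The family was chosen from values of the prolactin against control contrast itself, so its changes are a description and its p-values are no independent support. Polyadenylated RNA was sequenced from pancreatic islets of wild-type C57B6 mice in 6 libraries, labelled as a mixture of cell types. The islets recovered overnight after isolation in a serum-supplemented medium. Then 3 samples received recombinant mouse prolactin at 500 ng/mL for 24 h, and 3 control samples received the solvent DMSO for 24 h. The labels do not say whether the replicates came from separate mice or islet preparations, so the tests measure the spread between these 6 libraries, which may be technical.

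Guanylate-binding proteins are best known as products of interferon-gamma stimulation, which acts through the receptor kinases Jak1 and Jak2 and reaches the transcription factor Irf1. The proteins bind GTP through an amino-terminal globular domain, assemble on membranes and on the vacuoles of intracellular pathogens, and work with the immunity-related GTPases and the ATG8 lipidation machinery in host defence. Prolactin acts on beta cells through its receptor Prlr, which activates Jak2 and the transcription factor Stat5. Interferon-gamma signalling and prolactin signalling therefore share a kinase and a similar palindromic DNA motif.

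The genes lie in 2 clusters. In the mm10 coordinates of the count tables, Gbp5, Gbp7, Gbp3 and Gbp2 lie on the plus strand of chromosome 3, from base 142493978 at the start of Gbp5 to base 142638008 at the end of Gbp2. The other 6 lie on the minus strand of chromosome 5, in the order Gbp8, Gbp9, Gbp4, Gbp10, Gbp6 and Gbp11, from base 105014150 to base 105346472. The codons of the P-loop, the stretch of the GTPase domain that holds the phosphates of GTP, show how close the members are. They are printed from the GENCODE vM21 coding sequences with the 8 codons of the motif in capitals and 2 flanking codons on each side in lower case.
Gbp11: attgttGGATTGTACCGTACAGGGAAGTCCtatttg
Gbp8: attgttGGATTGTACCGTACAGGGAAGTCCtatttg
Gbp9: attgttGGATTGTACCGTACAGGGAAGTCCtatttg
Gbp6: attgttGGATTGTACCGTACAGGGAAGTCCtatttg
Gbp4: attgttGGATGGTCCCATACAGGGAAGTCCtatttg
Gbp10: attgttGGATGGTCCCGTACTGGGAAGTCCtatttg
Gbp3: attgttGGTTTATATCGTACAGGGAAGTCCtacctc
Gbp7: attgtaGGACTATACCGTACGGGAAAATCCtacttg
Gbp2: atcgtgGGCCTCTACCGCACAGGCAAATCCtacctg
Gbp5: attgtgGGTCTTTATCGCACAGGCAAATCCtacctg
Over these 36 bases Gbp11, Gbp8, Gbp9 and Gbp6 were identical. Gbp4 and Gbp10 each differed from Gbp11 at 3 bases, Gbp3 at 6, Gbp7 at 7, and Gbp2 and Gbp5 each at 10. Over whole coding sequences, the 15 pairs within chromosome 5 shared 89.6% to 98.4% of aligned bases, with the highest value for Gbp6 and Gbp10. The 6 pairs within chromosome 3 shared 61.4% to 78.3%, and the 24 pairs between the clusters 60.4% to 74.7%.

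**Figure D1:**
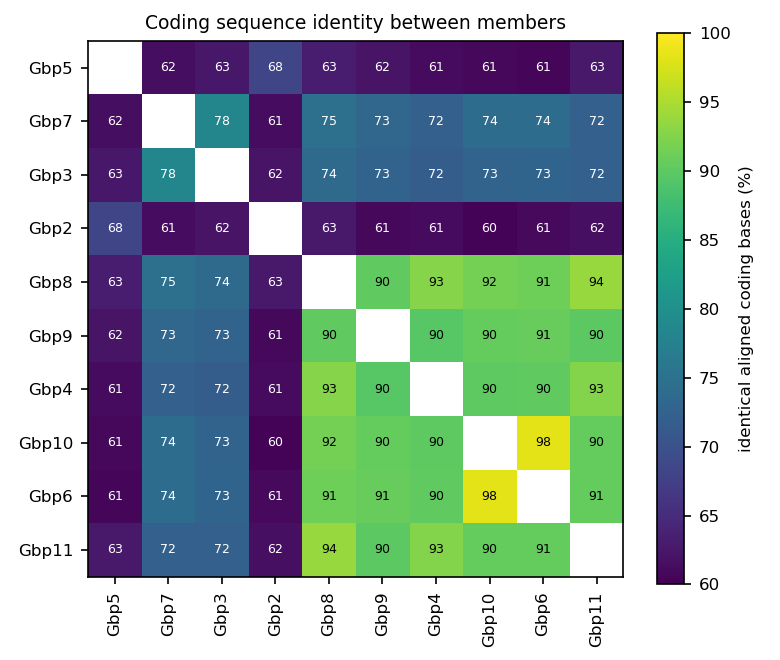
Percent of aligned coding bases that are identical, for each pair of the 10 genes in chromosomal order (rows and columns) and coloured from 60% to 100%. The 6 genes of chromosome 5 form a block at 89.6% or more, while the 4 genes of chromosome 3 lie between 61.4% and 78.3% of each other.

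Gbp2 and Gbp5 were the 2 members whose coding sequence ended in a CaaX box, a cysteine 4 residues from the end that receives a lipid anchor and ties the protein to membranes. Their last 6 codons before the stop are shown with the CaaX codons in capitals.
Gbp2: gggaagTGCACTATACTC
Gbp5: catgacTGTGTTATAAGC
The coding sequences of the other 8 members had no cysteine at that place. Gbp8 had the shortest annotated coding sequence, with 525 codons against 589 to 638 in the others. GENCODE vM21 lists Gbp11 as a polymorphic pseudogene, and its annotated reading frame of 619 codons held 1 in-frame stop, at codon 443, in the reference genome. Read only up to that stop, the frame of Gbp11 is shorter than that of Gbp8.

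Because the chromosome 5 copies are so alike, the counts of Gbp11 and Gbp8 rest on the stretches that set them apart. The 60-base coding window in which Gbp11 and Gbp6 differed most lies at coding bases 1672 to 1731 of Gbp11. Its aligned counterparts follow, with every base that differs from Gbp11 in capitals.
Gbp11: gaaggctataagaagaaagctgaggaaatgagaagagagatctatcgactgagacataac
Gbp8: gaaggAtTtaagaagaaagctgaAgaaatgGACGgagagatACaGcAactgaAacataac
Gbp4: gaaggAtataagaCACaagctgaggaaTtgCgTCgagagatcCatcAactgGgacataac
Gbp10: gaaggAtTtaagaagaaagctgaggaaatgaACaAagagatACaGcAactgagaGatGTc
Gbp6: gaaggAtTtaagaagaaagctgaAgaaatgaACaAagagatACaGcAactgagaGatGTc
Gbp9: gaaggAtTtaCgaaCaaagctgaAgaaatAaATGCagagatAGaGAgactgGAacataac
Gbp8 differed from Gbp11 at 12 bases of this window, Gbp4 at 11, Gbp10 at 12, Gbp6 at 13 and Gbp9 at 16. Across the longest coding transcripts, 5.13% of the 100-base windows of Gbp11 and 3.81% of those of Gbp8 also occurred exactly in another gene, loci that overlap a member being set aside. With 50-base windows the shares were 19.2% for Gbp11 and 21.2% for Gbp8, and no source used here gives the read length. For Gbp6 the share of 100-base windows was 46.7%, with 44.2% found in Gbp10. For Gbp10 it was 57.0%, with 56.1% found in Gbp6, so the division of reads between Gbp6 and Gbp10 is uncertain. The remaining members had 2.88% or less of their 100-base windows in another gene. Counting the unnamed loci that overlap a member, Gm43302 held 82.9% of the windows of Gbp6 and 70.0% of those of Gbp10, and Gm43802 held 9.76% of those of Gbp7. Gbp8, Gbp9 and Gbp4 also have a first exon in common, at chr5:105139480-105139540, of which Gbp9 holds 60 bases and Gbp8 and Gbp4 61. Reads in an exon of several genes count for none of them under the counter's default.

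Promoter windows were in the RefSeq table (GRCm38.p6) for Gbp5, Gbp7, Gbp3 and Gbp2. Gbp4, Gbp6, Gbp8, Gbp9, Gbp10 and Gbp11 had no entry. Both strands were searched in the 300-base windows for the gamma-activated site TTCNNNGAA, a motif that STAT proteins bind, and for GAAANNGAA, the core of the interferon-stimulated response element. Gbp5 and Gbp7 are shown because their windows held the same number of both motifs while the prolactin libraries lay below all controls for Gbp5 and inside the control range for Gbp7. The bases before the RefSeq start are printed on the plus strand, stopping short of any exon of the gene in the count tables, at chr3:142496684-142496899 for Gbp5 and chr3:142530086-142530335 for Gbp7, with every match in capitals. The Gbp5 stretch lies inside the gene model of the count tables, which begins further upstream at base 142493978.
Gbp5: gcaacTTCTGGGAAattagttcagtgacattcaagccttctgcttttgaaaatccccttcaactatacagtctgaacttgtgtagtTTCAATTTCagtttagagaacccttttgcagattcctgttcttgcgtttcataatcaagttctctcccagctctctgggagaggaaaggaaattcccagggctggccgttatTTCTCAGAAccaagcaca
Gbp7: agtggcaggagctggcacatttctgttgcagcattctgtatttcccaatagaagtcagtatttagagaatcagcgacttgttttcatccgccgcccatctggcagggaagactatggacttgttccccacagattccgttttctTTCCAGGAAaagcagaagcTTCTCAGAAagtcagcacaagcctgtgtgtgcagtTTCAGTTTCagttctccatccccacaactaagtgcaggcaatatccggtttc
Each of these 2 windows held 2 gamma-activated sites and 1 interferon response core. One of the windows of Gbp3 held 2 overlapping interferon response cores and no gamma-activated site, the other held neither motif, and the window of Gbp2 held 1 core. Of 32851 promoters in the table, 8.3% held a gamma-activated site, 8.56% an interferon response core and 1.07% both. A match describes these letters and not binding.

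In the control islets Gbp3, Gbp2 and Gbp7 of chromosome 3 were the most abundant members per length, while Gbp5 ranked 8 of 10. RPKM, a level scaled to both exon length and library total, in control libraries averaged 8.88 ± 1.64 for Gbp3, 6.15 ± 0.859 for Gbp2 and 5.11 ± 0.361 for Gbp7 (SD, n = 3 each). The ranges of Gbp2 and Gbp7 overlapped. Gbp9 followed with 3.30 ± 0.496 RPKM, then Gbp8 with 1.77 ± 0.218 RPKM. Gbp11 with 1.15 RPKM, Gbp6 with 0.915 RPKM and Gbp5 with 0.906 RPKM overlapped in their control ranges. Gbp4 with 0.671 RPKM and Gbp10 with 0.262 RPKM were the lowest. These levels depend on the length used. Over the longest coding transcript of each gene, control levels were 2.09 RPKM for Gbp6, 1.97 RPKM for Gbp5 and 1.15 RPKM for Gbp11, which placed Gbp6 and Gbp5 above Gbp11. An unnamed locus, Gm43302, covers 29.0% of the exon bases of Gbp6 and 46.3% of those of Gbp10 on the same strand. Without the covered bases, the control level of Gbp6 was 1.29 RPKM and that of Gbp10 was 0.487 RPKM. In prolactin-treated islets Gbp3, Gbp2 and Gbp7 were again the first 3 genes by RPKM, at 8.16, 5.63 and 5.24.

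Prolactin-treated islets had more Gbp11 and Gbp8 transcript than control islets, and no member was called lower. A call here is a Benjamini-Hochberg adjusted p under 0.05 in the quasi-likelihood test of edgeR, adjusted over all 23924 genes tested, and 2 of the 10 members were called higher. Over all genes tested, 0.652% were called higher and 0.104% lower. Nothing is read from the difference, because the family was chosen with this contrast in view. Of the 10 log2 changes, 5 were positive and 5 negative, and their median was 0.00, as was the median over all genes tested. The 3 libraries of a group lay wholly on one side of the other group for 3 members (Gbp11, Gbp8 and Gbp5), against 21.6% of all genes tested. In such bulk samples, more cells of a type and more RNA per cell cannot be told apart.

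**Figure D2:**
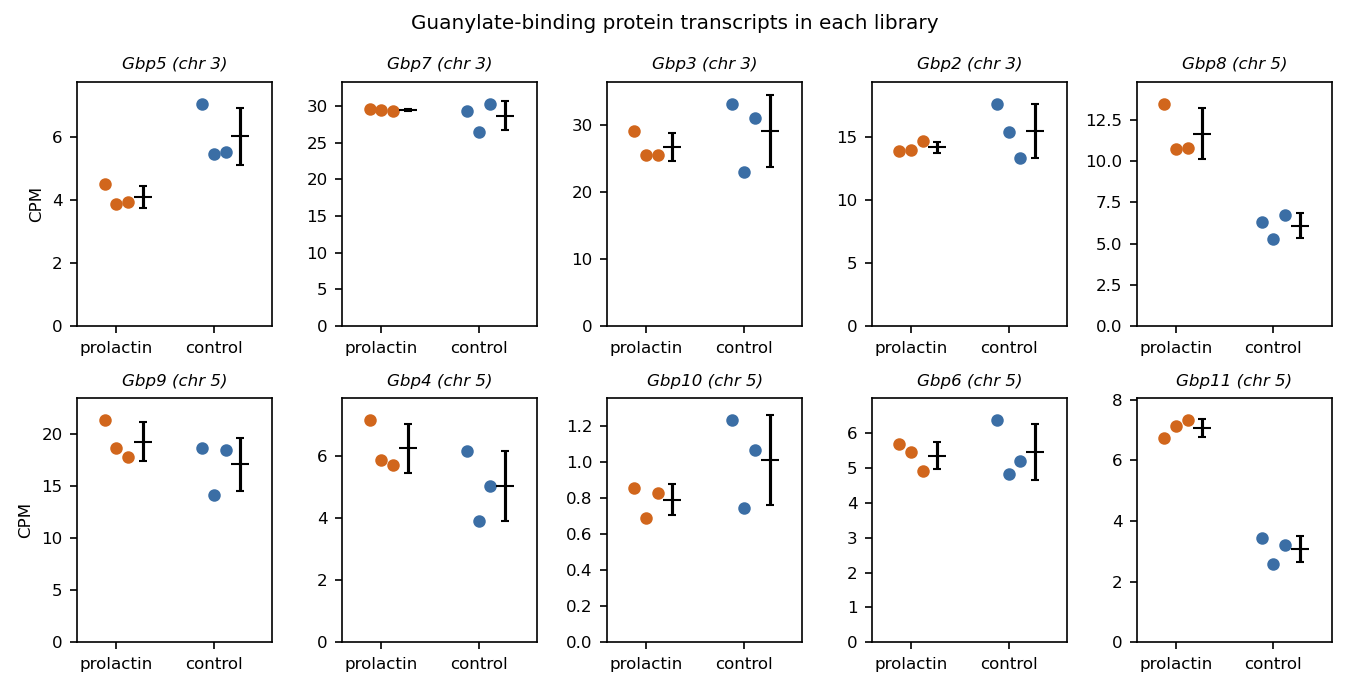
Level in CPM, counts scaled to the library total (linear axis from 0), of each of the 10 genes in the 3 prolactin libraries (orange) and 3 control libraries (blue), with the mean and SD of each group in black. All prolactin points of Gbp8 and Gbp11 lie above all control points, all those of Gbp5 lie below, and the groups overlap for the other 7 genes.

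Gbp11 is the last gene of the chromosome 5 cluster (105323042 to 105346472), and its function is little studied. Gbp11 had 6.73, 7.14 and 7.33 CPM in prolactin libraries 1 to 3, against 3.43, 2.60 and 3.22 CPM in control libraries 1 to 3. The lowest prolactin library lay well above the highest control library. The log2 change was 1.19 with a standard error of 0.11, a 2.29-fold difference, and the adjusted p of the edgeR test was 0.00231. Gbp11 ranked 26 of 23924 genes by p, at a mean of 5.08 CPM. The raw counts behind these values were 1559, 1660 and 1940 in prolactin libraries and 1844, 706 and 863 in control libraries, of which control 1 had the largest total.

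Gbp8 (105014150 to 105139540), the first gene of the same cluster by lowest coordinate, has the shortest annotated coding sequence. Its level was 13.5, 10.7 and 10.8 CPM in prolactin libraries, against 6.33, 5.26 and 6.71 CPM in control libraries. Again the groups did not overlap, and prolactin library 1 was the highest. The log2 change was 0.94 with a standard error of 0.12, and the adjusted p of the edgeR test was 0.0118. Gbp8 ranked 54 of 23924 by p. Per length, its mean was 3.39 RPKM in prolactin libraries and 1.77 RPKM in control libraries.

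Gbp9 and Gbp4 overlap Gbp8 on the chromosome and share its first exon, and neither was called. Gbp9, which is recruited to parasite vacuoles in mouse cells, had 21.3, 18.7 and 17.8 CPM in prolactin libraries, against 18.6, 14.1 and 18.5 CPM in control libraries. Prolactin library 3 lay below controls 1 and 3, so the groups overlapped, and the log2 change was 0.17 with a standard error of 0.11 (adjusted p 0.537). Gbp4 had 7.14, 5.87 and 5.69 CPM in prolactin libraries, against 6.16, 3.89 and 5.03 CPM in control libraries. Here too the groups overlapped, since control 1 lay above prolactin libraries 2 and 3. The log2 change of Gbp4 was 0.31 with a standard error of 0.16 (adjusted p 0.428).

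The neighbours of Gbp11 within the cluster, Gbp6 and Gbp10, have been linked to defence against intracellular bacteria in mouse macrophages. Gbp6 had 5.68, 5.45 and 4.92 CPM in prolactin libraries, against 6.36, 4.81 and 5.18 CPM in control libraries. Its groups overlapped fully, with a log2 change of -0.03 and a standard error of 0.12. Gbp10 was the lowest member, with 0.855, 0.692 and 0.831 CPM in prolactin libraries, against 1.23, 0.744 and 1.07 CPM in control libraries. Control 2 lay within the prolactin range, and the log2 change was -0.36 with a standard error of 0.20 (adjusted p 0.456).

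Gbp5, a CaaX-bearing member linked in mouse macrophages to inflammasome assembly, was lower in every prolactin library than in any control library and did not pass the threshold of the edgeR test. It had 4.50, 3.87 and 3.92 CPM in prolactin libraries, against 7.05, 5.46 and 5.53 CPM in control libraries. Control 1 stood above controls 2 and 3, and the gap between the groups remained without it. The log2 change was -0.55 with a standard error of 0.12 and an adjusted p of 0.0825. In the authors' deposited table, the adjusted p of Gbp5 was 0.000276 at a log2 fold change of -0.55. DESeq2 run on the counts gave the same call. The gene ranked 393 of 23924 by p in the edgeR test.

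The other 3 genes of chromosome 3, which were the most abundant members, were not called. Gbp7, which has been linked to oxidase assembly in mouse phagocytes, had 29.6, 29.5 and 29.3 CPM in prolactin libraries, against 29.3, 26.4 and 30.3 CPM in control libraries. The prolactin libraries lay inside the control range, and the log2 change was 0.04 with a standard error of 0.06. Gbp3 had 29.0, 25.4 and 25.5 CPM in prolactin libraries, against 33.1, 22.9 and 31.0 CPM in control libraries. Its log2 change was -0.12 with a standard error of 0.12 (adjusted p 0.708), and controls spread more widely than prolactin libraries. Gbp2, the second member with a CaaX box and a factor at parasite vacuoles in mouse cells, had 13.9, 14.0 and 14.6 CPM in prolactin libraries, against 17.7, 15.4 and 13.3 CPM in control libraries. Control 3 lay below all prolactin libraries, and the log2 change was -0.13 with a standard error of 0.10 (adjusted p 0.605).

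**Figure D3:**
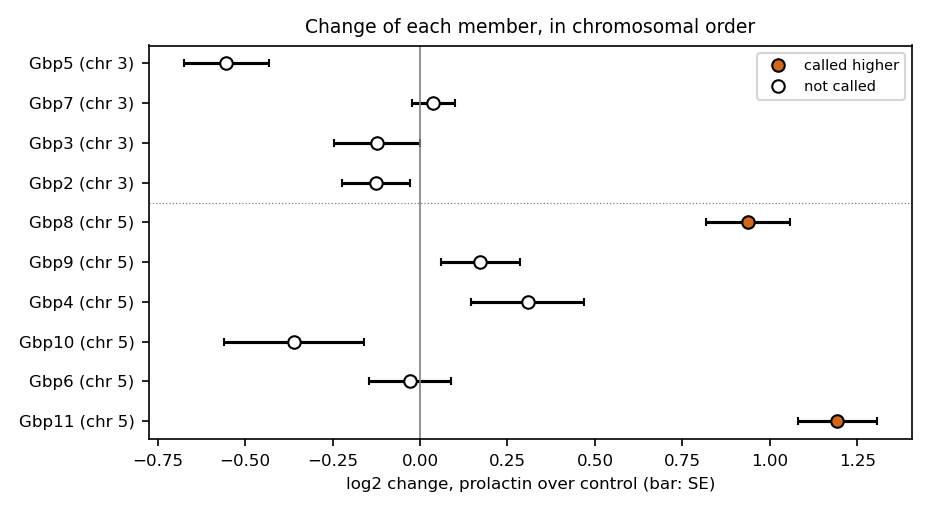
Log2 change of each gene, prolactin over control, with its standard error (bars), ordered along chromosome 3 (top 4) and chromosome 5 (bottom 6). Filled points passed the threshold of the edgeR test. By lowest coordinate, Gbp8 at 0.94 is the first and Gbp11 at 1.19 the last gene of the chromosome 5 cluster. The other 4 genes of the cluster, of which Gbp9 and Gbp4 overlap Gbp8, have changes from -0.36 to 0.31.

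Control libraries differed among themselves in a way shared by most members. Control 2 was the lowest of the 3 controls in 9 of the 10 genes, and control 1 the highest in 8 of 10. To take such a shared shift out, each gene was also given as a percentage of the counts of its own cluster. Gbp11 made up 12.2%, 14.7% and 15.5% of the chromosome 5 counts in prolactin libraries, against 8.15%, 8.27% and 8.13% in control libraries. Gbp8 made up 24.5%, 22.1% and 22.9% in prolactin libraries, against 15.02%, 16.8% and 16.9% in control libraries. Both shares stood apart between the groups, and for Gbp11 the controls lay within a very narrow band. Since shares of a cluster sum to a whole, those of other genes had to be lower. Gbp9 made up 38.2% ± 0.582 in prolactin libraries and 45.2% ± 1.23 in control libraries (SD, n = 3 each). Gbp6 made up 10.6% in prolactin libraries and 14.5% in control libraries, Gbp10 1.58% in prolactin libraries and 2.66% in control libraries. Gbp4 overlapped between the groups.

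Like the shares, ratios of raw counts between neighbours restate the same counts and are no separate support. No scaling between libraries touches them, but the count of Gbp6 carries the uncertain division of reads with Gbp10. Gbp11 had 1.19, 1.31 and 1.49 times the counts of Gbp6 in prolactin libraries, against 0.540, 0.540 and 0.623 times in control libraries. The ratio of Gbp8 to Gbp9, whose first exon is shared, was 0.634, 0.575 and 0.610 in prolactin libraries, against 0.340, 0.373 and 0.363 in control libraries. Prolactin and control libraries were apart in both ratios. On chromosome 3 the ratio of Gbp5 to Gbp7 was 0.152, 0.131 and 0.134 in prolactin libraries, against 0.241, 0.207 and 0.183 in control libraries. This ratio too was separated, with prolactin libraries below. Gbp7 made up 39.6% ± 1.08 of the chromosome 3 counts in prolactin libraries and 36.4% ± 2.36 in control libraries, while Gbp2 and Gbp3 overlapped.

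**Figure D4:**
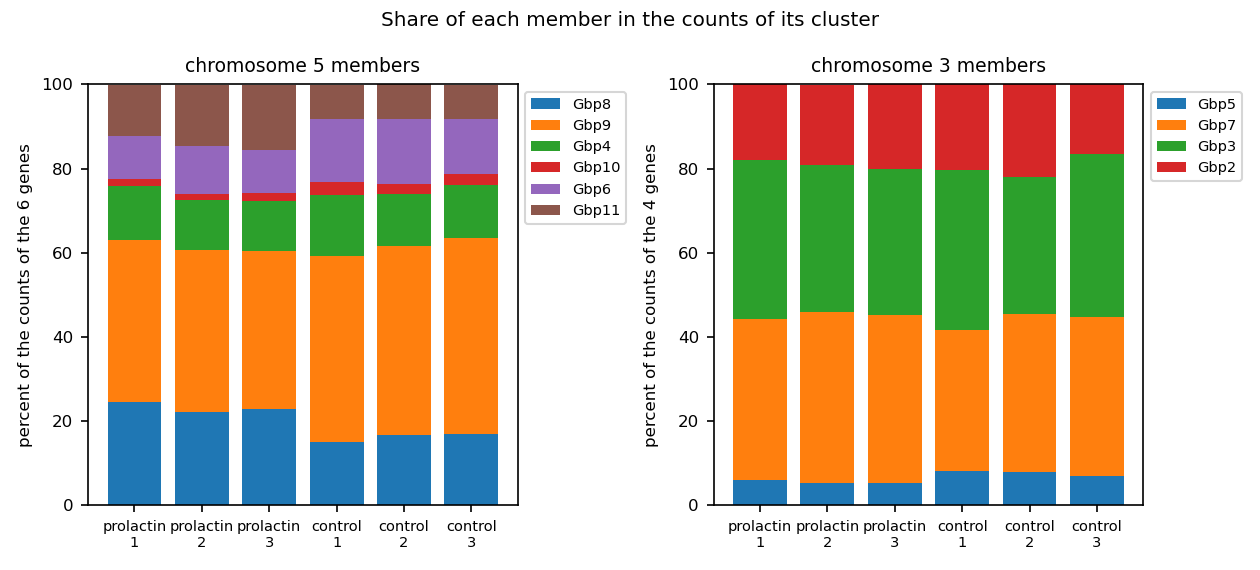
Percent of the summed counts of the 6 chromosome 5 genes (left) and the 4 chromosome 3 genes (right) that fell to each gene, one stacked bar per library, prolactin libraries 1 to 3 and then control libraries 1 to 3. On chromosome 5 the Gbp8 and Gbp11 segments are larger in every prolactin bar, and on chromosome 3 the Gbp5 segment is smaller.

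Sums over a cluster do not move when reads are divided between close copies within it. Reads in an exon of several genes, which count for none under the counter's default, are missing from the sums. The sums too are built from the same counts of the members. The chromosome 5 genes together had 55.2, 48.5 and 47.4 CPM in prolactin libraries, against 42.1, 31.4 and 39.7 CPM in control libraries, and the groups did not overlap. Without Gbp8 and Gbp11 the sum was 35.0, 30.7 and 29.2 CPM in prolactin libraries, against 32.4, 23.6 and 29.8 CPM in control libraries, and it overlapped. The chromosome 3 genes together had 77.0, 72.8 and 73.4 CPM in prolactin libraries, against 87.1, 70.2 and 80.1 CPM in control libraries, also with overlap. The remaining genes of the family were scarcely detected. Gbp2b had 9, 9 and 17 counts in prolactin libraries and 27, 13 and 5 counts in control libraries, and Gbp2-ps, a pseudogene, had 5 counts or fewer in each library.

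The genes around the clusters were looked at next. Within 200 kb of a member lay 24 other genes, of which 7 had a mean of at least 1 CPM, and edgeR called 0 of them. Before adjustment, 2 of the 7 lay under 0.05 on the higher side and 1 on the lower side. DESeq2 called 1 higher and 1 lower, and limma-voom 0. Lrrc8c, a subunit of volume-regulated anion channels beyond the Gbp11 end of the cluster, averaged 15.7 ± 0.785 CPM in prolactin libraries and 11.4 ± 1.12 CPM in control libraries (SD, n = 3 each). Its log2 change was 0.46 and its adjusted p 0.0501. Lrrc8b, which lies between Gbp11 and Lrrc8c, had a log2 change of 0.13 (adjusted p 0.291). Zfp951, on the Gbp8 side, had a log2 change of 0.02. On chromosome 3, Pdlim5, Gtf2b and Pkn2 had log2 changes of 0.00, 0.06 and -0.03. Ccbl2, a kynurenine aminotransferase gene that follows Gbp2, had a log2 change of -0.24 (adjusted p 0.153).

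The genes whose centred log2 CPM over the 6 libraries lay closest to the called members were listed from 11581 genes that averaged at least 5 CPM. For Gbp8 they were Gm27168, a locus without a gene name, at a root mean square distance of 0.058, Ovol2, a zinc finger transcription factor, at 0.091, and Gfra3, a co-receptor for artemin, at 0.15. For Gbp11 they were Amigo2, an adhesion protein, at 0.16, Trpm1, a cation channel, at 0.16, and Socs2, a feedback inhibitor of Stat5 signalling, at 0.17. Socs2 averaged 51.3 ± 3.94 CPM in prolactin libraries and 21.9 ± 1.13 CPM in control libraries (SD, n = 3 each). All 6 genes lie on other chromosomes than the members. All 6 were themselves called higher, with log2 changes from 0.90 for Gm27168 to 1.23 for Socs2. Genes picked by closeness to a called member have similar changes by construction, so these calls are no separate support.

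The prolactin response itself was present in the treated libraries. Cish, an inhibitor of cytokine receptors that is induced by Stat5, had 36.5, 42.0 and 40.8 CPM in prolactin libraries, against 8.27, 7.54 and 8.68 CPM in control libraries. Its log2 change was 2.28 (adjusted p 7.87e-06, edgeR). Prlr, the prolactin receptor, had 441, 479 and 497 CPM in prolactin libraries, against 212, 233 and 233 CPM in control libraries. Cish, Prlr and Socs2 were called higher among 6 genes listed for this response. Jak2, Stat5a and Stat5b were not called, with log2 changes of -0.11, -0.07 and 0.08.

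No tested gene listed for the wider interferon programme to which guanylate-binding proteins belong was called. Over 8 lists of interferon, GTPase and cofactor genes, 87 of 90 genes were tested and edgeR called 0, with 26 log2 changes above zero and 61 below and a median of -0.09. Before adjustment, 4 lay under 0.05 on the higher side and 13 on the lower side, and DESeq2 and limma-voom also called 0. Of all 23924 genes tested, the same unadjusted threshold was passed by 1861 that were higher and 1599 that were lower. Calls by edgeR reached 0.652% higher and 0.104% lower over all genes, so 0 calls among 87 genes say little. Among the signalling genes, Ifngr1 and Ifngr2, which form the interferon-gamma receptor, had log2 changes of -0.10 and 0.11. Irf1 had 65.7, 73.1 and 70.1 CPM in prolactin libraries, against 72.6, 70.4 and 70.2 CPM in control libraries. The groups overlapped. Irf8, an interferon regulatory factor of myeloid cells, stood at a log2 change of 0.19 (adjusted p 0.319). The cytokine gene Ifng itself was at 0.0168 CPM or less in every library.

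**Figure D5:**
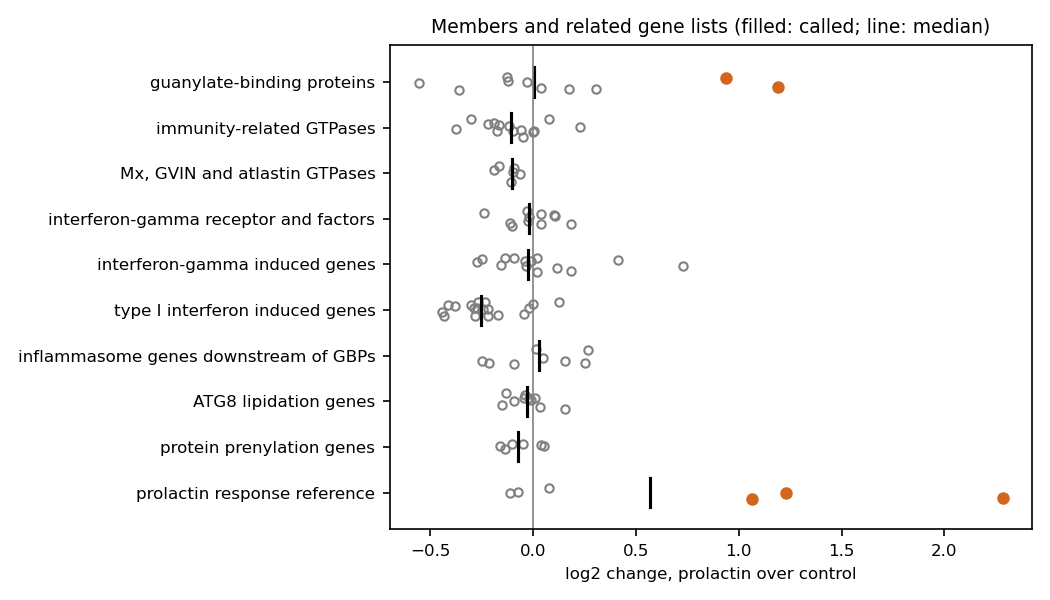
Log2 change, prolactin over control, of every tested gene of the family and of 9 related lists (rows), with called genes filled and the median of each list as a vertical line. Calls fall in the guanylate-binding protein row (Gbp8 and Gbp11) and in the prolactin reference row (Prlr, Socs2 and Cish), and the median of the type I interferon row lies at -0.26.

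The immunity-related GTPases, which act with guanylate-binding proteins on pathogen vacuoles, had a median log2 change of -0.11 over 14 tested genes. Of these, Irgm1 had 49.0, 48.4 and 47.8 CPM in prolactin libraries, against 57.9, 52.0 and 54.1 CPM in control libraries, so that the groups were apart by a small margin. Its log2 change was -0.18 with an adjusted p of 0.189. Igtp and Iigp1 had log2 changes of -0.17 and -0.22. The more distant Mx, GVIN and atlastin GTPases had a median of -0.10 over 6 genes, and Atl1, Atl2 and Atl3, which shape the endoplasmic reticulum, had log2 changes of -0.17, -0.10 and -0.06.

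Among 14 tested genes induced by interferon-gamma the median log2 change was -0.02. Tap2, a peptide transporter for antigen presentation, stood at a log2 change of 0.18 (adjusted p 0.284), and B2m, the light chain of class I molecules, at -0.27 (adjusted p 0.431). Cxcl11, a chemokine, had a log2 change of 0.73 at 0.202 CPM or less in every library. Among 18 genes induced by type I interferon, 16 log2 changes were negative and the median was -0.26, with 0 called and 8 lower at an unadjusted p under 0.05. The median was -0.14 without control 3 and -0.37 without control 2. Irf9, a subunit of the factor that drives these genes, had 62.0, 57.8 and 57.6 CPM in prolactin libraries, against 71.5, 61.4 and 77.3 CPM in control libraries. Parp14 and Ddx58 of the same list had log2 changes of -0.24 and -0.22. The summed level of the list was 680, 620 and 624 CPM in prolactin libraries, against 766, 613 and 897 CPM in control libraries. Controls 1 and 3 were thus high and control 2 low, as for most guanylate-binding protein genes. Gbp5 had 7.05, 5.46 and 5.53 CPM in control libraries 1 to 3, so its control 3 lay close to control 2. Whether the spread of the type I interferon list bears on the level of Gbp5 was not tested.

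Genes that act downstream of guanylate-binding proteins or modify them were not called. Of 8 inflammasome genes, Gsdmd, which forms pores in pyroptosis, had 6.08, 6.49 and 6.02 CPM in prolactin libraries, against 5.15, 5.21 and 5.23 CPM in control libraries, a log2 change of 0.25 (adjusted p 0.18). Il18 and the adaptor Pycard had log2 changes of -0.25 and -0.22. The 10 genes of ATG8 lipidation had a median log2 change of -0.03, with Atg12 at -0.15, Map1lc3a at 0.16 and Atg16l1 at -0.09. The 6 genes of protein prenylation, which lipidate CaaX boxes or process them afterwards, had a median of -0.08. Zmpste24 stood at -0.16, Fnta at -0.14 and Pggt1b at -0.10.

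Guanylate-binding proteins are also made by immune and vascular cells, so markers of the cell types that islet preparations hold were set beside these values. The 13 macrophage markers summed to 156 to 180 CPM in prolactin libraries, against 158 to 175 CPM in control libraries, with 0 called and a median log2 change of -0.00. The 10 lymphocyte and natural killer markers summed to 1.45 to 2.24 CPM in prolactin libraries and 1.79 to 2.14 CPM in control libraries, and 3 of them passed the filter, of which 0 were called. The 12 endothelial markers all had positive log2 changes, with 1 called (Vwf, 0.59) and sums of 472 to 484 CPM in prolactin libraries against 407 to 466 CPM in control libraries. The 11 stromal markers were also all positive, with 2 called (Col1a1, 0.86 and Col1a2, 0.92), and summed to 747 to 924 CPM in prolactin libraries against 371 to 554 CPM in control libraries. The median log2 change of the endothelial list was 0.16 and that of the stromal list 0.52, or 0.25 without control 3, and no marker of either list was at 0. DESeq2 called 3 endothelial and 4 stromal markers higher. Their part in the higher Gbp8 and Gbp11 and the lower Gbp5 was not tested.

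Beta-cell markers had the highest summed level of all marker lists, in a tissue labelled as islets. The 10 beta-cell markers summed to 119100 to 124600 CPM in prolactin libraries and 117100 to 143600 CPM in control libraries, with 0 called. Of 3 delta-cell and PP-cell markers 1 was called lower by edgeR (Sst, -0.40), and DESeq2 called 2. In the same list Ppy had a log2 change of -0.74 (adjusted p 0.0708, edgeR), with all prolactin libraries below all controls. The 7 ductal markers had a median log2 change of 0.22 with 0 called. The 10 acinar markers summed to 716 to 1597 CPM in prolactin libraries and 423 to 2537 CPM in control libraries, with 0 called. Beside these 0 counts, an unadjusted p under 0.05 was reached by 0 macrophage, 1 lymphocyte, 1 beta-cell, 2 ductal and 0 acinar markers. DESeq2 called 1 ductal marker and 0 of the other lists named with no call, and limma-voom called 0 of them.

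Library totals ranged from 230833584 to 264885071 counts in prolactin libraries and from 264466143 to 530296257 in control libraries. At these totals each member other than Gbp10 rested on at least 706 counts in every library, and Gbp10 on 161 to 662. Prolactin libraries 2 and 3 were closer to each other than any other pair. Over genes, the median of their squared deviation, scaled by the binomial variance, was 3.68 times the median of a binomial draw. For the other pairs it was 11.3 to 49.2 times. Prolactin libraries 2 and 3 differed by more than such a draw, although counting both mates of a pair raises this ratio. They were kept as separate replicates. The summed alternative gave the same 2 called members.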

How the data were processed

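Per the file headers, the authors ran featureCounts 2.0.3 with GENCODE vM10 models, summed by gene name, and deposited the raw count of each gene in each library. The submitters' processing notes name mm10, SAMtools 1.21, Subread 2.1.0 and DESeq2, and no source used here gives the aligner. The counting command in the headers counts paired reads without a pair option or strand option, so both mates can be counted and strands were not told apart. The authors' deposited table of comparisons gives, for every gene, a mean signal over libraries, a log2 fold change with its error, a statistic (a score), and a p-value before and after adjustment. All per-sample columns were used (0 were left out).

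Libraries were grouped by their labels. edgeR 4.0.16 in R 4.3.3 kept 23924 of 48397 genes (minimum count 10, minimum total 15), scaled by TMM, and tested prolactin against control in a quasi-likelihood fit with condition as the only term, two-sided. Calls used a threshold of 0.05 on Benjamini-Hochberg adjusted p. Totals were 230833584 to 530296257 counts per library, and with halved counts the standard error of Gbp11 was 0.1142 against 0.114 in the main fit. The procedure was tested on simulated data. CPM use the scaled totals, and RPKM divide them by exon length. Members and gene lists were chosen with earlier results of these data known, and each list is described by its counts and median, without a test. Named genes were all members and relatives, called list genes with up to 3 smallest p-values per list, neighbours within 200 kb with a mean of at least 1 CPM, and the 3 nearest patterns of each called member. Alternatives were other scalings, other filters, DESeq2 1.42.0, limma-voom 3.58.1, a replicate block and halved counts. Further alternatives left out each library or summed prolactin replicates 2 and 3. Lengths without shared bases and longest coding transcripts were added after seeing the data. Some genes of the lists are not reported here.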

Additional observations from a re-analysis of the deposited data

How the results depend on the processing

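Gbp11 and Gbp8 stayed called under all 15 alternatives, with log2 changes of 1.08 to 1.28 and 0.82 to 1.01. Their adjusted p-values ranged from 2.94e-23 to 0.021 for Gbp11 and from 2.27e-13 to 0.0448 for Gbp8. Leaving out each library gave 0.0055 to 0.021 for Gbp11 and 0.0202 to 0.0448 for Gbp8. Gbp5 was also called, lower, by DESeq2 (adjusted p 0.000276), with no filter (0.0127) and with the replicate block (0.019), and its adjusted p was 0.0528 to 0.342 when a library was left out. The log2 change of Gbp7 turned to -0.02 without control 2, in a range of -0.0196 to 0.0786 over the left-out libraries. That of Gbp6 turned to 0.10 without control 1 and 0.03 without prolactin 3, in a range of -0.1131 to 0.0982. The cause was not tested.

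Over all genes, 156 were called higher and 25 lower. These counts became 470 and 127 with no filter, 776 and 303 with DESeq2, 464 and 134 with the replicate block, and 42 and 2 with prolactin replicates 2 and 3 summed. A filter of 1 CPM gave 46 lower. They were 342 and 234 without control 3, 63 and 10 without control 2, 86 and 8 without prolactin 1, 39 and 1 without prolactin 2, and 39 and 2 without prolactin 3, and 15 were lower without control 1. Same-numbered libraries deviated together with correlations of 0.46, 0.30 and -0.01, so the numbers were not taken to pair the samples. Gbp10 had no value under the 1 CPM filter. The sums were log2 0.30 to 0.50 for chromosome 5 and -0.17 to -0.02 for chromosome 3 over their alternatives. Genes under 1 CPM rest on few reads, and interval estimates from counts alone are not given because mates may be counted separately.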
